A study of Mus musculus with 39 samples.

Results

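Mouse embryonic stem cells (ESCs) kept for 5 days with 50 ng/ml Wnt3a were compared with cells kept for 5 days in the same medium without growth factors. The comparison rests on 6 of the 39 miRNA arrays of the series, 3 of Wnt3a and 3 of control, which were taken by their labels for treatment and day and not by their values. The study asks which miRNAs accompany the change of mouse ESCs towards definitive endoderm, for which Activin A is the usual signal and Wnt3a an added one. Cells of the TCL-1 line, derived from 129/SvJae mice, were freed of feeder cells on gelatin and seeded on collagen. They were then given Wnt3a, 100 ng/ml Activin A, both, or neither for 1, 3 or 5 days, always in RPMI medium with B27 and, as the labels put it, sodium butyrate. Each of the 12 treated or control groups and the undifferentiated ESCs have 3 arrays. TCL-1 is a single line, and the labels do not say whether the 3 samples of a group came from separate cultures. The p-values below thus measure only the spread between samples, pooled over the groups of a fit.

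A miRNA is a short RNA that binds messenger RNAs mostly through its bases 2 to 8, the seed, so miRNAs with a common seed can bind many of the same messages. Mouse ESCs are rich in the miRNAs of the miR-290 to miR-295 cluster, which fade as the cells differentiate, while those of the miR-302 to miR-367 cluster are typical of the early embryo after implantation. Wnt3a is a secreted ligand that stabilizes beta-catenin, and it is known both for helping ESCs to keep their state and for its part in forming the primitive streak and the posterior body.

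The sequences below are those on which the results turn. RefSeq (mouse build GRCm38.p6) held a matching mature sequence for 53 of the 67 miRNAs that were called or named by rule, and capitals mark the seed. The first set holds members of the miR-290 to miR-295 and miR-302 to miR-367 clusters, whose medians lay on opposite sides of control although miR-291a-3p, miR-294 and miR-302b have a common seed; the entry of miR-302c starts further along, and miR-302a* is the other strand of miR-302a.
miR-291a-3p: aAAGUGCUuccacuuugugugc
miR-294: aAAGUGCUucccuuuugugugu
miR-302b: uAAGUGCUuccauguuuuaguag
miR-302c: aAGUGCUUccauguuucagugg
miR-302a*: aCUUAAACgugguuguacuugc
The next set holds the epithelial miRNAs of the miR-200 family, which fall into 2 seed groups, and 2 miRNAs of the Hox clusters, miR-10a and miR-10b, which have 1 seed.
miR-141: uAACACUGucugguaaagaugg
miR-200a: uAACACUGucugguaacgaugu
miR-200c: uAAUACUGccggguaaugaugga
miR-429: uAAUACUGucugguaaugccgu
miR-10a: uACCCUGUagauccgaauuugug
miR-10b: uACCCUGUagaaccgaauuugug
Of the others, miR-193, miR-181c and miR-672 were higher with Wnt3a, while miR-16 and miR-15b, of 1 seed, lay lower.
miR-193: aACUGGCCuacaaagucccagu
miR-181c: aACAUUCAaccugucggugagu
miR-672: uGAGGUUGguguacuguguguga
miR-16: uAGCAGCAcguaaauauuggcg
miR-15b: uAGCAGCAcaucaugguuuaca
The last set is shown for its base composition: beside miR-302b, the first pair lay lowest and the others highest on Wnt3a replicate 1 when set against the other Wnt3a arrays, among the miRNAs detected on all 6 arrays.
miR-26b: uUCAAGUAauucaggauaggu
miR-135a: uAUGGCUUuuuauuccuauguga
miR-681: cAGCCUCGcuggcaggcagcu
miR-706: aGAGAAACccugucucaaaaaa
miR-452: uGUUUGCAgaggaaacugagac

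A level below is the log2 of an array's total signal for a miRNA after quantile normalization over all 39 arrays and a floor of 2, so that 1.00 is the floor. Quantile normalization gives the miRNA of a given rank the same level on every array, so the highest levels take a few shared steps. A difference is Wnt3a minus control on this log2 scale, fitted with limma over the 12 arrays of day 5. A miRNA is called where its Benjamini-Hochberg adjusted p is under 0.05 and the difference exceeds 2-fold. For each miRNA the 4 groups of the fit share 1 estimate of the spread. The Wnt3a arrays varied more than the control arrays (root mean square departures of 0.68 to 1.24 against 0.21 to 0.3). The shared spread can therefore understate the error of the Wnt3a mean, also without Wnt3a replicate 1. Of 611 mouse miRNAs on the array, 289 were detected on all 6 arrays and 232 on 0 of 6. The control arrays detected 324, 319 and 315, and the Wnt3a arrays 319, 366 and 343. Their total raw signals were 87107, 84647 and 87278 in control and 86154, 171426 and 109488 with Wnt3a.

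Wnt3a replicate 1 stood apart from every other array of the comparison. Over the 289 miRNAs, the root mean square difference of replicate 1 from replicates 2 and 3 was 1.34 and 1.22, while replicates 2 and 3 were 0.57 apart and the control arrays 0.27 to 0.36 apart. Replicate 1 lay 1.14 to 1.15 from the control arrays, replicate 2 lay 0.75 to 0.78 and replicate 3 lay 0.49 to 0.55, so the other Wnt3a arrays were nearer to control than to replicate 1. In 129 of the 289 miRNAs (44.6%) replicate 1 was more than 2-fold from the mean of replicates 2 and 3, against 66 (22.8%) for replicate 2, 33 (11.4%) for replicate 3 and 4 to 6 miRNAs for a control array, each set against the other 2 of its group. For this reason counts and differences from control are given with all arrays and, for the calls, also without Wnt3a replicate 1.

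With all arrays, 14 of 358 miRNAs tested were called (3.91%), 10 of them higher with Wnt3a (2.79%) and 4 lower (1.12%). Without Wnt3a replicate 1, 34 of 355 were called (9.58%), 26 higher (7.32%) and 8 lower (2.25%). The unadjusted p was under 0.05 in 76 and 164 miRNAs. The fits had 13 calls in common; miR-16 was called only with all arrays and 21 miRNAs only without replicate 1. Of the 35 called in either fit, 25 were detected on all 6 arrays, and 17 had Wnt3a values that did not overlap the control values. Over the 289 miRNAs the Wnt3a arrays were all above control in 27 (9.34%) and all below in 30 (10.4%), 57 without overlap in all (19.7%). The calls depended on the processing: normexp background correction left 1 with all arrays and 0 without replicate 1 (175 at an unadjusted limma p under 0.05). A limma fit of the 6 arrays alone, with the spread of control and Wnt3a only, left 0 (35 at an unadjusted p under 0.05), and 18 without replicate 1. They depended on further arrays too: the count was 23 without Wnt3a replicate 3 and 9 without control replicate 3. Scaling each array to its 75th percentile in place of quantile normalization gave a count like the main count but another split. Of 15 calls 14 were higher, or 15 of 16 where the percentile was taken over the miRNAs detected on all 39 arrays. Under either scaling 7 of the calls were among the main 14. Without replicate 1 these scalings gave 29 of 30 and 39 of 40 higher, with 18 and 23 of the calls among the main 34.

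**Figure D1:**
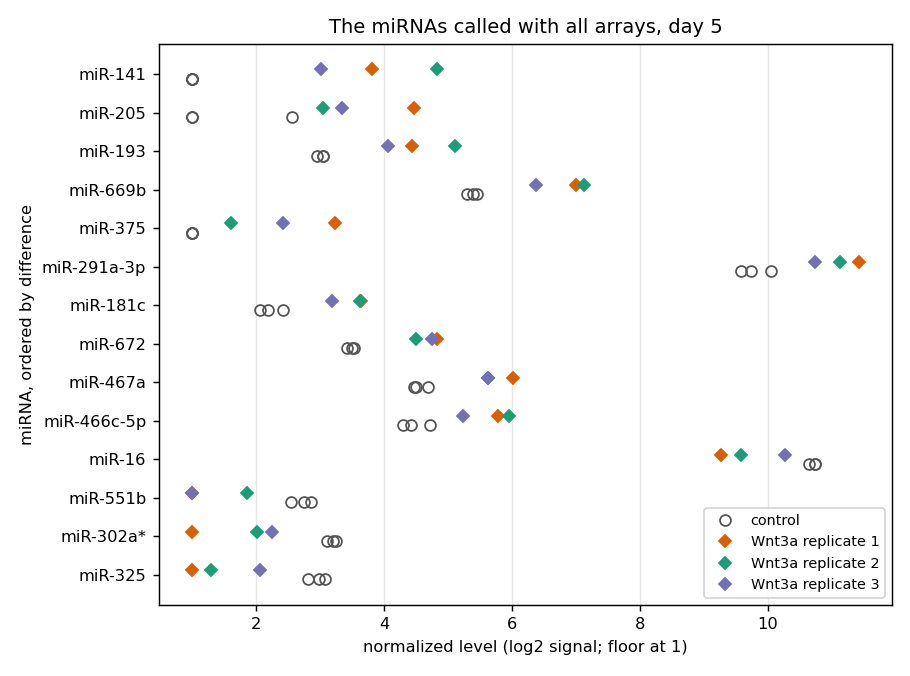
Levels of the 14 miRNAs called with all arrays (log2 signal, horizontal axis) on each control array (circles) and each Wnt3a array (diamonds, coloured by replicate), ordered by difference. The Wnt3a arrays lie above control in the 10 upper miRNAs and below in the 4 lower; miR-325, miR-302a* and miR-551b lie near the floor.

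**Figure D2:**
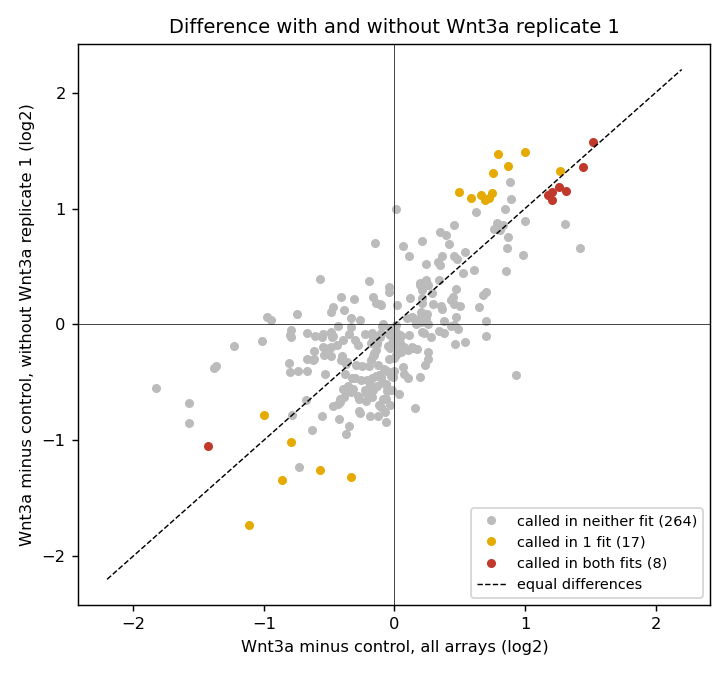
Difference of Wnt3a from control with all arrays (horizontal axis) and without Wnt3a replicate 1 (vertical axis), both log2, for each of the 289 miRNAs detected on all 6 arrays, coloured by calls. The 8 called in both fits lie near the dashed line of equal differences, and the 17 called in 1 fit mostly lie away from it.

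The medians of the miR-290 to miR-295 and miR-302 to miR-367 clusters lay on opposite sides of control, with 1 call in each cluster and no test of the difference between them. In both fits 1 of 13 tested was called higher in the former and 1 of 8 lower in the latter. Over all miRNAs tested 2.79% were called higher and 1.12% lower, or 7.32% and 2.25% without replicate 1. Of the miR-290 to miR-295 cluster, 14 are on the array, 13 were tested and 12 were detected on all 6 arrays; 5 of these 12 had all Wnt3a arrays above control and 0 had them below, beside 9.34% and 10.4% of all 289. Their median difference was 0.69, or 0.45 without replicate 1, beside -0.06 and -0.11 over all 289 miRNAs. Of the miR-302 to miR-367 cluster, 8 are on the array, 8 were tested and 6 were detected on all 6 arrays, of which 0 lay above control and 4 below, with a median of -0.71, or -0.51 without replicate 1. The medians kept their signs under 75th percentile scaling, at 0.75 and -0.74, under quantile normalization of log2 signals, at 0.91 and -0.49, and under normexp background correction, at 0.13 and -0.34. The arrays hold RNA of the whole culture, so fewer cells of a type and less RNA per cell cannot be told apart.

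miR-291a-3p, with the seed that many members of both clusters have in common, stood at 10.04, 9.57 and 9.74 in control and at 11.43, 11.13 and 10.74 with Wnt3a. It was higher by 1.31 (SE 0.18, adjusted p = 0.00229), and by 1.15 without replicate 1 (adjusted p = 0.0018), with every Wnt3a array above every control array. It passed the adjusted p in 12 of 12 omissions of an array and in 18 of 20 alternatives. The most abundant member, miR-294, had levels of 11.13, 11.27 and 11.27 in control and 12.48, 11.59 and 12.18 with Wnt3a. That difference of 0.86 passed the adjusted p (0.0369) but not the 2-fold threshold; without replicate 1 it was 0.66 (adjusted p = 0.0245). The other strand of its neighbour, miR-295*, lay at 2.74, 2.21 and 2.02 against 4.50, 3.58 and 2.80, a difference of 1.30 that did not pass (adjusted p = 0.0708), and miR-291a-5p, with the largest difference of the cluster at 1.42 (adjusted p = 0.219), had replicate 2 at 3.25, below the control values of 3.40, 3.32 and 3.45.

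Members of the miR-302 to miR-367 cluster were present in undifferentiated ESCs and higher in control at day 3: miR-302b had means of 7.67 and 10.34, miR-302a of 9.68 and 10.79, and miR-367 of 8.92 and 9.82, while miR-302a* was undetected in ESCs. In control at day 5 miR-302b, at 8.75, was above ESCs, and miR-302a and miR-367, at 9.11 and 8.07, were below. At day 5 miR-302a* fell from 3.103, 3.20 and 3.25 in control to 1.00, 2.02 and 2.25 with Wnt3a. It was called in both fits, at -1.43 (SE 0.26, adjusted p = 0.0113) and -1.05 without replicate 1 (adjusted p = 6.14e-05), but its levels are close to the floor: it did not pass with a floor of 8, nor without control replicate 3 (adjusted p = 0.0551). Far above the floor, miR-302c lay at 7.54, 7.54 and 7.60 in control and at 6.84, 6.72 and 7.10 with Wnt3a. Its difference of -0.68 (SE 0.09, adjusted p = 0.00161; -0.66 without replicate 1, adjusted p = 0.00173) was under 2-fold, and the groups did not overlap. The largest difference of the cluster was that of miR-302b, with 8.61, 8.81 and 8.81 in control and 4.37, 8.18 and 8.22 with Wnt3a. Replicate 1 made most of its -1.82 (adjusted p = 0.26), and without it the difference was -0.55 (adjusted p = 0.00588). The cluster was not uniform, since miR-367 was higher by 0.46 and overlapped control (adjusted p = 0.504). miR-294, miR-302c, miR-367 and the other members named here outside the rule were chosen after their values were seen.

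The group with most calls was the set of related miRNAs miR-297, miR-466, miR-467 and miR-669, copies of a repeat within an intron of Sfmbt2. Of 39 on the array 21 were tested; 3 were called higher with all arrays and 8 without replicate 1, and 0 lower in either fit. The calls over all miRNAs tested were 2.79% and 7.32% higher. Of the 17 detected on all 6 arrays, 5 had every Wnt3a array above control and 0 below, beside 9.34% and 10.4% of all 289. Their median was 0.50, or 0.81 without replicate 1, beside -0.06 and -0.11 over all 289. Under 75th percentile scaling the median was 0.52 and under normexp correction 0.15. The probes of such near-copies may read each other's RNA, so they are not independent measurements.

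Of the members detected on all 6 arrays, miR-669b had the largest difference. It stood at 5.46, 5.39 and 5.30 in control and at 6.995, 7.12 and 6.37 with Wnt3a, higher by 1.45 (SE 0.17, adjusted p = 0.00116; 1.36 without replicate 1). miR-467a stood at 4.68, 4.50 and 4.46 against 6.01, 5.63 and 5.63, higher by 1.21 (SE 0.11, adjusted p = 0.000277; 1.08 without replicate 1). In both the groups were well apart, and miR-467a was the only miRNA whose call with all arrays remained when slide was a term of the fit. miR-466c-5p stood at 4.41, 4.72 and 4.29 against 5.78, 5.95 and 5.24, higher by 1.18 (adjusted p = 0.00284; 1.12 without replicate 1). In miR-669f the levels were 7.52, 7.401 and 7.54 in control and 6.70, 8.78 and 8.48 with Wnt3a. There replicate 1 was under and the others over control, so that the difference was 0.50 (adjusted p = 0.518) with all arrays and 1.14 without replicate 1 (adjusted p = 6.14e-05). The same held of miR-467e, with 4.62 on replicate 1 under a control mean of 5.05 and 6.29 and 5.99 on the others. miR-297c was undetected on all control arrays and had 2.15, 5.65 and 3.62 with Wnt3a. Against the floor, where an undetected miRNA is set, that is at least 7.0-fold higher with all arrays (adjusted p = 0.0629) and at least 12.4-fold higher without replicate 1 (adjusted p = 0.00428).

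Some epithelial miRNAs were higher with Wnt3a, from low levels. Of the miR-200 family, which holds back the transition of epithelial to mesenchymal cells, 9 are on the array, 7 were tested and 4 were detected on all 6 arrays; 1 was called higher with all arrays, 2 without replicate 1 and 0 lower, beside 2.79% and 7.32% higher over all miRNAs tested. miR-200b did not pass with all arrays (0.24, adjusted p = 0.277), and its Wnt3a arrays overlapped control. The median of the 4 was 0.65, and 0.61 without replicate 1, beside -0.06 and -0.11 over all 289 miRNAs. With all arrays it was 0.51 under 75th percentile scaling, 1.33 under quantile normalization of log2 signals and 0.09 under normexp correction. miR-141 was at the floor on all control arrays, though detected on 1 of them, and stood at 3.81, 4.82 and 3.02 with Wnt3a. It was higher by 2.88 (SE 0.37, adjusted p = 0.00161) and by 2.92 without replicate 1, a size that depends on the floor. miR-200c stood at 3.91, 3.93 and 3.93 against 5.03, 4.55 and 4.81, higher by 0.87 (SE 0.11, adjusted p = 0.00151), and miR-429 was higher by 0.61 (adjusted p = 0.0221); without replicate 1 these were 0.75 and 0.47. These differences were under 2-fold with no overlap of the groups. In miR-200a, replicate 1 lay at 4.11, below the control values of 4.15, 4.19 and 4.15, while the others lay at 5.39 and 5.07, so it was called only without replicate 1, at 1.07 (adjusted p = 0.000101). miR-205, another miRNA of epithelia, lay at 1.00, 2.57 and 1.00 in control and 4.46, 3.04 and 3.34 with Wnt3a, higher by 2.09 (adjusted p = 0.0237) and by 1.67 without replicate 1 (adjusted p = 0.0189). Control replicates 1 and 3 lay at the floor, so the size of this difference depends on the floor too. The call of miR-205 was lost on leaving out Activin A replicate 1 or either of control replicates 1 and 3, where the highest adjusted p was 0.104.

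The miRNAs within the Hox clusters, which lie beside the genes of body-axis position, were few, and the calls among them rest on replicates 2 and 3. Called higher were 0 of 4 tested with all arrays and 2 without replicate 1, beside 2.79% and 7.32% over all miRNAs tested. miR-10a stood at 4.62, 4.66 and 4.60 in control and at 4.64, 5.83 and 6.41 with Wnt3a. Its difference was 1.00 with all arrays (adjusted p = 0.146) and 1.49 without replicate 1 (adjusted p = 0.000522). miR-10b stood at 5.35, 5.46 and 5.48 against 5.404, 6.23 and 6.90, with differences of 0.75 (adjusted p = 0.178) and 1.14 (adjusted p = 0.0018). On replicate 1 both lay within the range of control, and on replicates 2 and 3 both lay above it. Of the 7 Hox miRNAs on the array 4 were tested, and these 2 were the ones detected on all 6 arrays; miR-196b was detected on 3 of 3 Wnt3a arrays and 0 of 3 control arrays, but at levels of 1.10, 1.00 and 1.04.

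miR-375, a miRNA of gut and pancreatic endocrine cells, was undetected on all control arrays and stood at 3.23, 1.60 and 2.41 with Wnt3a (adjusted p = 0.0308). Against the floor it was at least 2.01-fold higher without replicate 1 (adjusted p = 0.00747). Of the other named markers of endoderm, gut and liver, miR-122, miR-192, miR-194 and miR-215 were undetected on all 6 arrays. The call of miR-375 was lost when any of the control, Activin A or Activin A plus Wnt3a arrays was left out, with adjusted p up to 0.104. Within the longer endoderm list of 10 miRNAs on the array 4 were tested. miR-375 was called higher in both fits, and miR-338-5p was called lower without replicate 1. Over all miRNAs tested 2.79% were called higher and 1.12% lower, or 7.32% and 2.25% without replicate 1. miR-338-5p had 2.77, 2.91 and 2.80 in control and 2.95, 1.00 and 1.20 with Wnt3a. Its replicate 1 was thus at the control level.

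Among other miRNAs called higher in both fits, miR-193 stood at 2.95, 3.04 and 3.04 in control and at 4.43, 5.10 and 4.07 with Wnt3a, a difference of 1.52 (SE 0.21, adjusted p = 0.00216; 1.57 without replicate 1). miR-181c stood at 2.18, 2.41 and 2.06 against 3.64, 3.62 and 3.18, a difference of 1.26 (SE 0.14, adjusted p = 0.000954; 1.18 without replicate 1). miR-672 stood at 3.42, 3.53 and 3.49 against 4.82, 4.49 and 4.75, a difference of 1.21 (SE 0.25, adjusted p = 0.0197; 1.14 without replicate 1). In all of them every Wnt3a array lay above every control array. miR-193 and miR-181c passed the adjusted p in every omission of an array, and the call of miR-672 was lost without any of the control arrays, at adjusted p up to 0.07. For miR-193 the arrays of both Activin A groups lay at or beside the floor, with an SD of 0.023 and 0, against 0.526 with Wnt3a. They add little spread to the fit and so lower its p-values, also in the omissions. Of the miR-181 family 5 were tested and miR-181c alone was called, in both fits. Over all miRNAs tested 2.79% were called higher, or 7.32% without replicate 1. The median of the 4 detected on all 6 arrays was 0.32 with all arrays, 1.22 on replicate 1 alone and -0.13 without it. Over all 289 miRNAs these medians were -0.06, 0.17 and -0.11.

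Few calls were lower, and most of these lay near the floor. miR-16, which restrains the cell cycle, is the exception, with 10.64, 10.74 and 10.74 in control and 9.27, 9.57 and 10.27 with Wnt3a. Its difference lay at the threshold itself (-1.001, SE 0.20, adjusted p = 0.0197), and it was not called without replicate 1 (-0.78, adjusted p = 0.00875). The call of miR-16 was also lost without control replicate 2 or control replicate 3, at adjusted p up to 0.07, and under 75th percentile scaling. miR-15b, with the same seed, stood at 10.81, 10.98 and 10.81 against 7.85, 9.65 and 10.38 (-1.57, adjusted p = 0.114; -0.85 without replicate 1, adjusted p = 0.00773). In both miRNAs every Wnt3a array was below every control array, and replicate 1 was the lowest. miR-325 fell from 2.80, 3.08 and 2.98 to 1.00, 1.30 and 2.06 (adjusted p = 0.00273) and miR-551b from 2.54, 2.86 and 2.74 to 1.00, 1.85 and 1.00 (adjusted p = 0.00236). Without replicate 1 the differences were -1.27 and -1.29. Both passed the adjusted p in each omission of an array, but neither did with a floor of 8 or under 75th percentile scaling. Like miR-322*, they were undetected in both Activin A groups, whose arrays at the floor add no spread to the fit and so lower their p-values. With that floor 1 lower call was left with all arrays and 0 without replicate 1, where 154 miRNAs had an unadjusted limma p under 0.05. The balance of higher and lower calls depended on the settings. With no fold threshold 20 were higher and 11 lower, and without replicate 1 these counts were 59 and 68. The fit of all 39 arrays had 13 higher and 14 lower, or 24 and 8 without replicate 1.

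The remaining calls, all made only without replicate 1, were miR-32, miR-34b-5p, miR-199b*, miR-466d-3p, miR-136, miR-29b, miR-19a, miR-669d, miR-582-5p and miR-199a-5p higher, and miR-708, miR-681, miR-351 and miR-322* lower. For most, replicate 1 lay on the control side: miR-34b-5p had 2.88, 2.77 and 2.83 in control and 2.25, 4.64 and 3.95 with Wnt3a, and miR-29b 3.04, 3.02 and 3.02 against 2.67, 4.89 and 3.77. In miR-199a-5p, with 1.07, 1.00 and 1.00 against 1.39, 2.31 and 1.74, and miR-136, it lay on the Wnt3a side. The latter is a miRNA of the imprinted Dlk1-Dio3 cluster, at 5.80, 5.29 and 5.61 against 6.72, 7.71 and 6.08. All its Wnt3a arrays lay above control, and its difference of 1.27 just missed the adjusted p with all arrays (0.0528); without replicate 1 it was 1.33 (adjusted p = 0.0349). miR-582-5p was undetected on the control arrays, on replicate 1 and in both Activin A groups, and without replicate 1 at least 2.81-fold higher. It was tested only because of the arrays on which it was high, and all others were at the floor without spread, so its p-value is not given. When 1 more array was left out, the adjusted p of miR-136 and miR-19a stayed under 0.05 in 2 of 11 cases each, that of miR-681 in 7 and that of miR-32 in 8.

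The other lists gave few calls, beside 2.79% higher and 1.12% lower over all miRNAs tested, or 7.32% and 2.25% without replicate 1. Their medians over the members detected on all 6 arrays, with those without replicate 1 after them, are read against -0.06 and -0.11 over all. The list of the miR-15/16 seed family and its other strands had -0.79 and -0.13 over 8 miRNAs, with 1 of 9 tested called lower in each fit. With all arrays this was miR-16, and without replicate 1 it was miR-322*, the other strand of a member, which does not have that seed. The median of this list depended on the processing. With all arrays it was -0.34 under 75th percentile scaling, -0.49 under quantile normalization of log2 signals and -0.12 under normexp correction. The neural list had -0.39 and -0.05 over 10, with 0 of 11 called in limma and 76 of 358 miRNAs in all at an unadjusted p under 0.05. The miR-17-92 cluster had 0.20 and 0.11 over 9, with miR-19a called without replicate 1, and the miR-106b-25 and miR-106a-363 clusters -0.15 and -0.06 over 8, with 0 of 9 called. The Dlk1-Dio3 cluster had -0.12 and -0.15 over 45, with 1 of 56 called without replicate 1. Fibroblast and mesenchymal miRNAs had 0.01 and -0.10 over 12, with 1 of 19 called higher, miR-193, and 3 without replicate 1. The passenger strands had -0.09 and -0.19 over 34, with 1 of 56 called lower, and without replicate 1, of 54, 1 higher and 2 lower. In the let-7 family the median was -0.36 and -0.65 over 2, the passenger strands let-7b* and let-7f*, and 0 of 6 were called. The main strands tested, let-7a, let-7c, let-7e and let-7f, lay at the floor on replicate 1. Without it they differed by -0.41, -0.28, 0.15 and -0.41.

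In the smaller families the counts were as low. The miR-29 family had 0.34 and 0.38 over 3, and the miR-34 family 0.19 and 0.70 over 3, each with 1 of 3 called higher without replicate 1, beside 7.32% over all. With 0 calls in either fit, the medians were 0.01 and -0.11 for the miR-99/100 and miR-125 families, -0.11 and 0.18 for the miR-23, miR-27 and miR-24 clusters, 0.35 and 0.16 for the family of miR-130 and miR-301 and -0.10 and -0.12 for the miR-30 and miR-26 families. They were -0.26 and 0.04 for the family of miR-148 and miR-152, -0.37 and 0.15 for the miR-335 strands, -0.16 and -0.57 for miR-221 and miR-222, and 0.15 and 0.09 for the cluster of miR-183, miR-96 and miR-182. Blood-lineage miRNAs had -0.16 and -0.37 over 4, the 1 endothelial miRNA detected throughout -0.48 and -0.20, and of 8 muscle miRNAs 2 were tested and 0 called. The miR-680 to miR-721 group, early entries of uncertain origin, had -0.07 and -0.46 over 21, with 2 called lower without replicate 1; on replicate 1 alone their median was 0.68. Lists whose median changed sign on leaving out replicate 1 include the miR-23, miR-27 and miR-24 clusters, in which miR-27a lay below control only on that array, at 3.69 against 6.55 and 6.59 on the others and 6.19, 6.19 and 6.17 in control.

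Other miRNAs that the rule names were not called. Without overlap of the groups, miR-805 lay at 4.29, 4.40 and 4.41 in control and 1.00, 3.40 and 3.99 with Wnt3a (-1.58, adjusted p = 0.178; -0.68 without replicate 1), and miR-369-5p at 5.76, 5.85 and 5.90 against 2.45, 5.33 and 5.58 (-1.38, adjusted p = 0.261; -0.38 without replicate 1). Those with the largest difference of their lists, among members detected on all 6 arrays, included miR-25 (-0.63, adjusted p = 0.158), miR-9 (-0.95, adjusted p = 0.406), let-7b* (-0.43, adjusted p = 0.844), miR-99b (0.47, adjusted p = 0.378), miR-130b* (-0.80, adjusted p = 0.136), miR-148a (-0.47, adjusted p = 0.519) and miR-183* (0.68, adjusted p = 0.261). Without replicate 1 these were -0.91, 0.04, -0.69, 0.06, -0.41, 0.15 and 0.25. Members detected on fewer arrays could differ by more, as did let-7a (-1.57, adjusted p = 0.277) and let-7f (-1.53, adjusted p = 0.274), each detected on 2 of 3 Wnt3a arrays and at 1.00 on replicate 1.

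**Figure D3:**
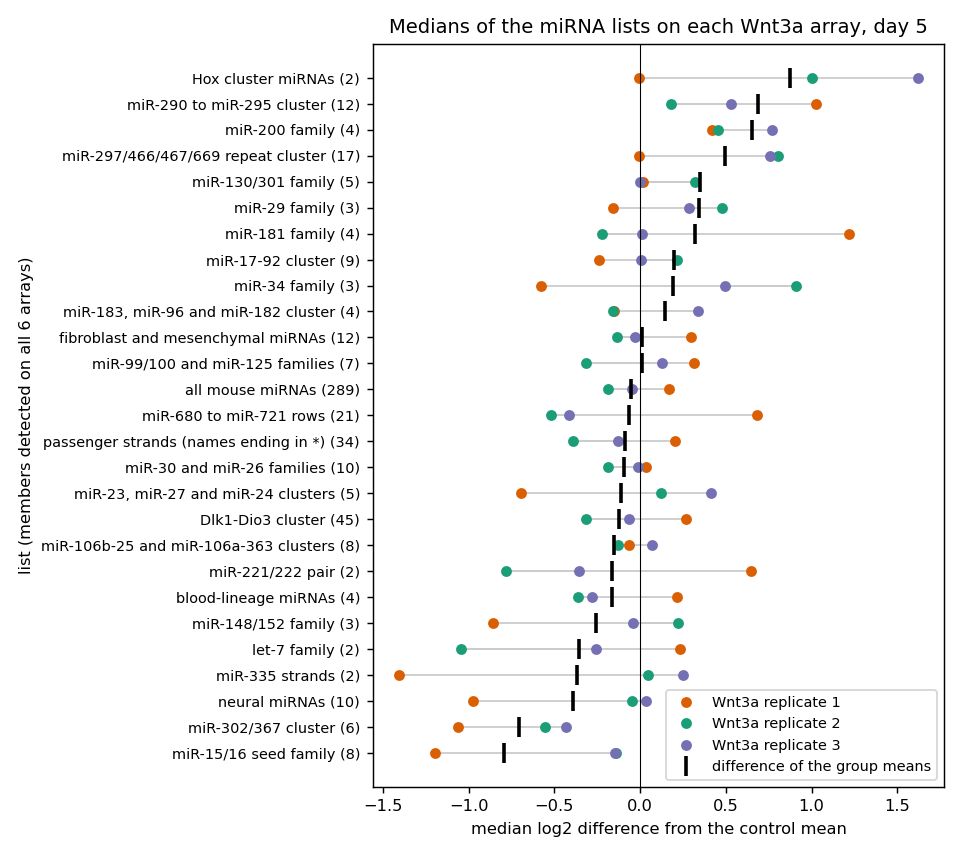
Median log2 difference from the control mean over the members of each list detected on all 6 arrays (their number in brackets), for each Wnt3a array (points) and for the difference of the group means (bars). In the miR-290 to miR-295 cluster, the miR-200 family and the miR-302 to miR-367 cluster the 3 arrays lie on the same side of 0; in the Hox and repeat miRNAs replicate 1 lies at 0, and in the miR-15/16, neural and miR-335 lists it lies far below the others.

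In the ESC, neural and epithelial sets, summed normalized signals of marker miRNAs lay nearer to control than to Activin A on each Wnt3a array. The 22 miRNAs of the miR-290 to miR-295 and miR-302 to miR-367 clusters, taken as ESC markers although most of the latter were higher in control at day 3 than in ESCs, summed to 9990, 10600 and 10400 in control and 15600, 13000 and 14100 with Wnt3a, beside a mean of 36500 with Activin A and 38200 in undifferentiated ESCs. The sums were higher on each Wnt3a array than on any control array and far below those of ESCs; miR-294 was the most abundant, and miR-291b-3p, miR-302b* and miR-302c* were undetected. The 4 neural miRNAs, of which miR-219 was the most abundant and none was undetected, summed to 980, 747 and 897 in control and 723, 1830 and 1020 with Wnt3a, and to a mean of 82.5 with Activin A. Epithelial miRNAs, led by miR-200b, summed to 119, 118 and 117 against 168, 195 and 194, with a mean of 1270 with Activin A; miR-200a*, miR-200b*, miR-200c* and miR-141* were undetected. The fibroblast set, led by miR-199a-3p, summed to 24.6, 24.3 and 26.0 against 5.65, 37.0 and 37.5, and to 420 in the undifferentiated ESCs. The endoderm set rested on miR-375 alone, with 9.37, 3.03 and 5.32 on the Wnt3a arrays and 0 in control. Blood miRNAs, led by miR-223, muscle miRNAs, led by miR-133a, and the endothelial miR-126-3p were each under 20 on every array of the comparison. What part the share of each cell type has in the results was not tested.

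At the top of the scale there were no calls. The highest means over the 6 arrays were those of miR-1224, miR-19b, miR-20a, miR-20b and miR-494, and 0 of the 5 were called in limma. miR-20a stood at 12.89 on each control array and at 11.13, 12.48 and 12.64 with Wnt3a, and miR-494 at 12.48, 12.48 and 12.64 against 13.32, 11.43 and 11.75. Replicate 1 was the lowest Wnt3a array in the former and the highest in the latter. Apart from miR-375, miR-297c and miR-196b, the miRNAs detected on all Wnt3a arrays and on 0 control arrays were miR-33, at least 3.37-fold higher against the floor (adjusted p = 0.25), miR-1907, at 3.91 on replicate 1 and at the floor on the others, and miR-133b, at 1.01 or the floor. There was 0 in the other direction.

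The same treatment at day 3 offers a comparison with no array in common. There 10 of 319 miRNAs tested were called (3.13%), all higher: miR-10a, miR-10b, miR-150, miR-196b, miR-199b*, miR-293*, miR-297c, miR-30a*, miR-375 and miR-669f. The 3 Wnt3a arrays of day 3 lay on a slide with 2 of the 3 control arrays of that day, so there the groups were not wholly on different slides. Of these 10, 6 were among the 35 called at day 5 in either fit, and all 6 were higher on both days; this is 60% of the day 3 calls and 17.1% of the day 5 calls. Of the 10, miR-150 and miR-199b*, the latter among the 6, were tested only because the Wnt3a arrays of day 3 detected them; every other array of that day lay at the floor for them, but for 1 array for miR-150. Of the 13 calls that day 5 made with and without replicate 1, 1 was called at day 3, namely miR-375. miR-10a was higher by 1.41 at day 3 (adjusted p = 0.000242), miR-10b by 1.78 (adjusted p = 5.21e-05) and miR-669f by 1.04 (adjusted p = 5.44e-06), beside 1.49, 1.14 and 1.14 at day 5 without replicate 1. The median at day 3 was 0.59 for the miR-290 to miR-295 cluster over 11 miRNAs, -0.57 for the miR-302 to miR-367 cluster over 6 and 0.75 for the repeat miRNAs over 14, each on the side it took at day 5. For the Hox miRNAs it was 1.60 over 2, with 3 of 4 tested called. miR-302c was lower by 0.77 at day 3 (-0.77, adjusted p = 9e-07) and miR-302b likewise (-0.77, adjusted p = 5.21e-05).

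The change of the effect from day 3 to day 5 was tested as the difference of the 2 differences, over 24 arrays. It passed the thresholds in 8 of 359 miRNAs (2.23%), 1 higher (0.279%) and 7 lower (1.95%) in effect at day 5, and without replicate 1 in 15 of 358 (4.19%), 5 higher (1.4%) and 10 lower (2.79%). The 1 higher was miR-141, by 2.53 (adjusted p = 0.00224), or 2.56 without replicate 1 (adjusted p = 0.00197). Its level in control went from 3.53 at day 3 to the floor at day 5, while with Wnt3a it was 3.88 on each day, so the size of this difference depends on the floor. In miR-196b the effect was smaller by 2.04 (-2.04, adjusted p = 0.0166) since a difference of 2.09 at day 3 had given way to 0.05, and in miR-150, undetected on all 6 arrays of the comparison at day 5, by 2.05 (-2.05); its p-value is not given, as all but the Wnt3a arrays of day 3 and 1 other lay at the floor. In miR-196b and miR-150 control was undetected on both days, so these sizes depend on the floor as well. Those control arrays have no spread, which also lowers the p printed for miR-196b. The others were miR-16, miR-21, miR-293*, miR-325 and miR-551b. Neither miR-10a (-0.41, adjusted p = 0.662) nor miR-669b (0.46, adjusted p = 0.344) passed. The count rested on single arrays, from 6 without control day 3 replicate 2 to 20 without Wnt3a day 5 replicate 3, and was 5 under 75th percentile scaling, of which 3 were higher, 2 were lower and 2 were among the 8. With slide as a term 1 call was left, a lower one, so that of miR-141 was lost.

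**Figure D4:**
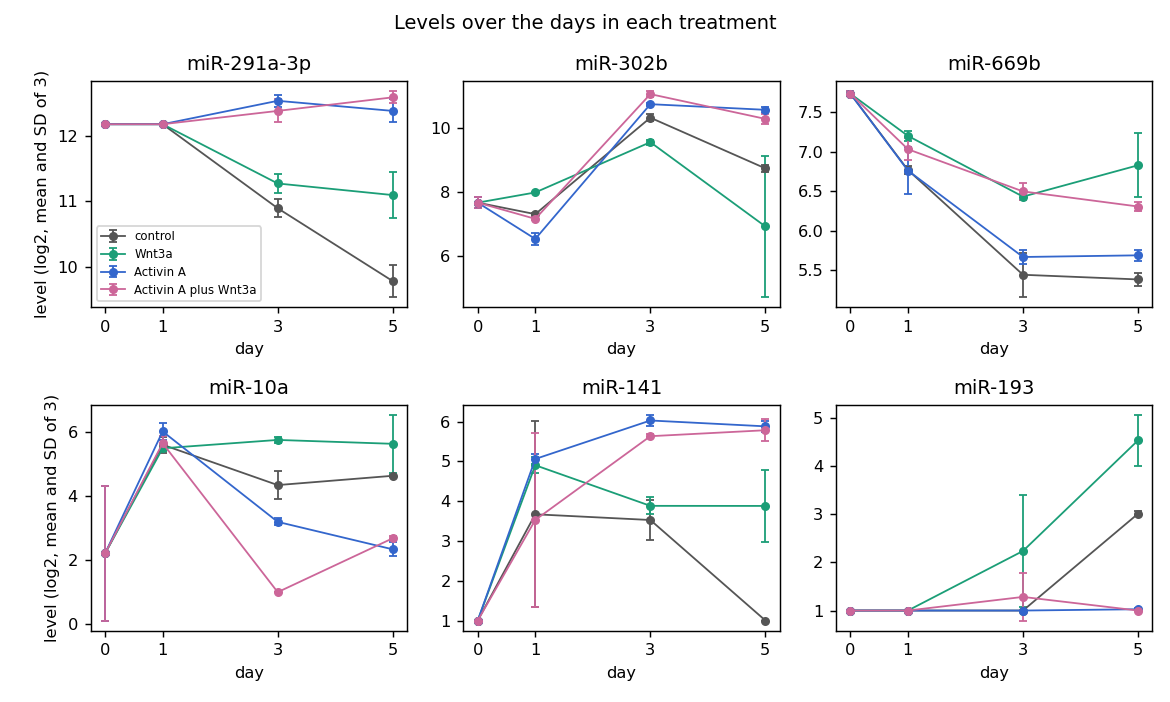
Mean level (log2, with the SD of 3 arrays) of 6 miRNAs in undifferentiated ESCs, set at day 0, and at days 1, 3 and 5 in each treatment. At day 5 the Wnt3a mean of miR-291a-3p, miR-669b and miR-141 lies above that of control, and miR-193 appears late, at 3.01 in control and 4.53 with Wnt3a at day 5 against 1.00 in ESCs.

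The courses differ in kind. miR-291a-3p kept the rank whose level is 12.18 from undifferentiated ESCs to day 1 in every treatment, where a change within that rank would not show. It then went down to 10.90 at day 3 and 9.78 at day 5 in control, and to 11.27 and 11.10 with Wnt3a. The difference at day 3 was 0.38 (adjusted p = 0.0273). With Activin A it was 12.38 at day 5. miR-669b and miR-467a had their highest means in ESCs, at 7.73 and 7.85, and were at 5.38 and 4.55 in control at day 5. By contrast miR-193 was undetected in ESCs and on all arrays of day 1, and reached 3.01 in control and 4.53 with Wnt3a at day 5, beside 1.03 with Activin A.

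The authors' processed matrix exchanges the Activin A arrays with those of the combined treatment, over 18 columns, when set against the scanner output, whose labels are used here. Under these labels miR-10a at day 3 had a mean of 3.19 with Activin A and was undetected with the combined treatment, which is the order the paper describes; the exchanged labels give the reverse. Set directly against Activin A at day 5, Wnt3a differed in 82 of 358 miRNAs (22.9%), 34 higher (9.5%) and 48 lower (13.4%), and without replicate 1 in 98 of 355 (27.6%), 47 higher (13.2%) and 51 lower (14.4%). Under 75th percentile scaling over the miRNAs detected on all 39 arrays the count was 83, but 59% of these were higher with Wnt3a in place of 41.5%, and the median of all miRNAs tested moved from 0.01 to 0.25. Several miRNAs that were higher with Wnt3a than in control were lower than with Activin A. miR-291a-3p was lower by 1.28 (-1.28, adjusted p = 0.000489), miR-141 by 2 log2 units (-2.002, adjusted p = 0.00237), miR-375 by 3.20 (-3.20, adjusted p = 4.84e-05) and miR-205 likewise (-2.173, adjusted p = 0.00477). These are differences larger than the shift of the median under that scaling. Higher than in control and than with Activin A were miR-193, miR-672 by 2.64 (adjusted p = 2.87e-05) and miR-669b by 1.14 (adjusted p = 0.00056). For miR-193 no size is given, as its Activin A arrays lay at 1.04, 1.04 and 1.00, at or beside the floor. miR-10a, which passed against control only without replicate 1, was 3.29 above Activin A with all arrays (adjusted p = 8.42e-05). Of the miR-290 to miR-295 cluster 6 of 13 tested were called lower than with Activin A, of the miR-302 to miR-367 cluster 6 of 8, of the miR-200 family 5 of 7, and 0 of these miRNAs higher. Of the neural list 4 of 11 were called higher and 0 lower, among them miR-124 at 4.65 (adjusted p = 1.25e-08) and miR-219 at 6.81 (adjusted p = 5.75e-06), while against control these had differences of 0.05 and 0.89 that did not pass.

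Treatment and slide cannot be told apart by the Wnt3a and control arrays alone, since the groups shared no slide: each had its 3 arrays on a slide that held none of the other. The Activin A arrays, of which replicates 1 and 2 shared the control slide and replicate 3 the Wnt3a slide, allow a fit with slide as a term. It left 1 call with all arrays, miR-467a at 1.28 (adjusted p = 0.0489), and 11 without replicate 1, 10 higher and 1 lower, all among the 34. Of these, miR-467a had 1.15 (adjusted p = 0.0034), miR-291a-3p 1.45 (adjusted p = 0.0213), miR-669b 1.48 (adjusted p = 0.0371), miR-10a 1.14 (adjusted p = 0.0393) and miR-34b-5p 1.68 (adjusted p = 0.0192). The slide term rests on 3 arrays. In miR-669b those arrays lay at 5.72, 5.74 and 5.61, in miR-467a at 5.03, 4.97 and 4.93 and in miR-291a-3p at 12.48, 12.48 and 12.18, so that replicate 3, on the Wnt3a slide, was in each case the lowest. In other miRNAs it was the highest: miR-10a had 2.31, 2.13 and 2.57, miR-199b* 1.10, 1.30 and 2.15 and miR-181c 3.66, 3.58 and 3.81. There the slide term made the difference without replicate 1 smaller, at 1.14, 0.42 (adjusted p = 0.355) and 0.99 (adjusted p = 0.0554).

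The departure of Wnt3a replicate 1 went with base composition. The G+C share of the mature sequence was computed for the 223 of the 289 miRNAs matched in RefSeq, a description added after the values were seen. Over these miRNAs, which share their arrays and are not independent replicates, replicate 1 minus the mean of replicates 2 and 3 had a Pearson correlation of 0.57 with the G+C share (Spearman 0.63). The median departure was -1.19 in the 40 miRNAs with at most 40% G+C and 1.12 in the 59 with at least 55%. The correlation for a control array against the other 2 lay between -0.04 and 0.06. Arrays of other groups departed along G+C too, though by less: over the 110 matched miRNAs detected on all 39 arrays, ESC replicates 1 and 2 had 0.42 and -0.44, with root mean square departures of 0.22 and 0.23, beside 0.53 and 1.16 for Wnt3a day 5 replicate 1. The control arrays of day 5 had -0.17, 0.18 and 0.02 over these miRNAs. Against the control mean, replicate 1 had 0.44, and replicates 2 and 3 had -0.38 and -0.35, the opposite sign. Over 182 matched miRNAs detected at days 3 and 5, the group difference at day 5 had a correlation with G+C of 0.05 with all arrays and -0.44 without replicate 1, and that at day 3 had -0.37.

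**Figure D5:**
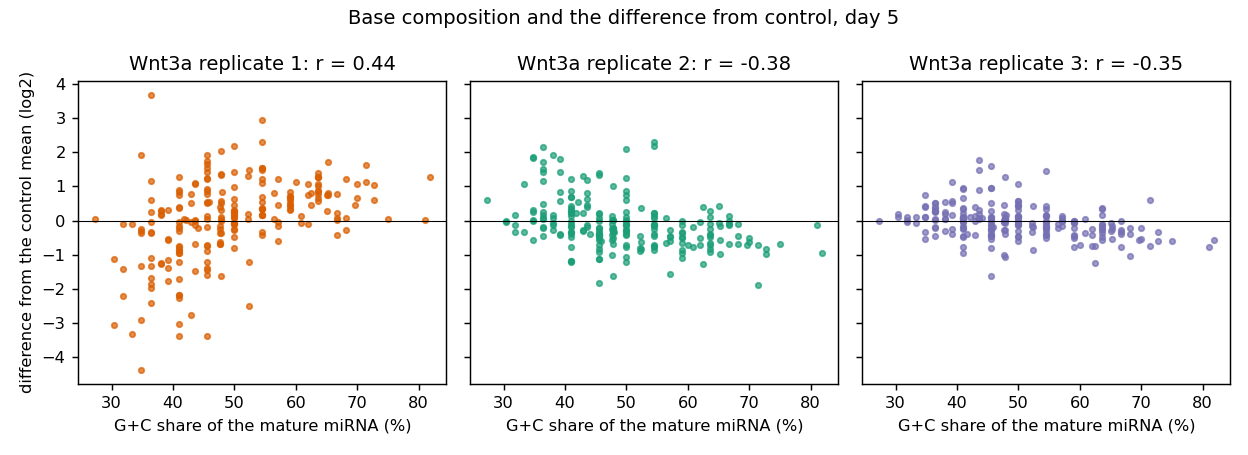
Difference from the control mean (log2, vertical axis) against the G+C share of the mature sequence (percent, horizontal axis) for 223 miRNAs on each Wnt3a array of day 5. Replicate 1 rises with G+C (r = 0.44), and replicates 2 and 3 decline with it (r = -0.38 and -0.35).

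The sequences printed above follow this only in part. miR-302b, miR-26b and miR-135a, with 34.8%, 33.3% and 30.4% G+C, had the lowest departures of replicate 1 among the miRNAs detected on all 6 arrays: miR-26b stood at 8.11, 8.22 and 8.18 in control and at 4.86, 7.85 and 8.11 with Wnt3a, and miR-135a at 7.03, 6.93 and 6.995 against 3.93, 6.93 and 7.17. On replicates 2 and 3 these lay close to control. At the other end miR-681, with 71.4% G+C, stood at 2.83, 2.98 and 2.88 against 4.53, 1.01 and 2.15, and miR-452, with 45.5%, at 5.53, 5.12 and 5.39 against 7.26, 4.43 and 4.82, with replicate 1 above control and the others below. miR-706, with 36.4% G+C, departed the other way from the first 3: it stood at 5.12 on replicate 1, at the floor on the other Wnt3a arrays and at 1.00, 1.66 and 1.66 in control. When the linear trend on G+C was taken from each array, an alternative added after the values were seen, 13 of 245 matched miRNAs were called with all arrays, 8 of them among the 14, and 21 of 244 without replicate 1, 19 of them among the 34. Without that step the matched miRNAs gave 10 and 23. What lay behind the departure of replicate 1 was not tested.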

How the data were processed

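The deposited scanner output holds intensity values that the authors obtained with Agilent Feature Extraction (10.7.3.1 per the file headers), background subtracted and combined into a total signal per miRNA, with 0.1 for an undetected miRNA. The deposited series matrix, which the authors put on the log2 scale after a floor and quantile normalization, served only as an alternative, with columns as named. In it the 18 columns of Activin A and Activin A plus Wnt3a hold the values of the other group's arrays, so that alternative has these groups exchanged. With R 4.3.3 and limma 3.58.1, the total signals of 650 miRNAs on 39 arrays went through quantile normalization, a floor of 2 and log2, in that order; the floor raised 150 of the 1986 values detected on the 6 arrays. The detection flags, set by the same software and deposited with the signals, chose the mouse miRNAs to test: those seen on 2 or 3 arrays in any group of the fit. limma's lmFit and eBayes were run on the 12 arrays of day 5, on 11 without Wnt3a replicate 1, and on the 24 arrays of days 3 and 5 for the difference between days. Lower bounds run from the mean level to the floor. The number of arrays limits the precision.

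Named by rule were the miRNAs called in either fit, up to 15 in each direction, with those detected on all 6 arrays first; the 5 largest rises and falls without overlap, of those detected on all 6; those detected on 3 of 3 arrays of 1 group and 0 of 3 of the other; the 5 highest levels; and, again of those detected on all 6, the member of each list with the largest difference and the 3 largest departures of Wnt3a replicate 1 in each direction. Members, lists and rule were chosen with earlier results of these data known, and other names were chosen after their values were seen. Array names were matched to RefSeq arms by a table written by hand. The fit was tested on simulated data, whose outcome is not reported here.

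Alternatives were scaling to the 75th percentile (over all mouse miRNAs, or those detected on all 39 arrays), quantile normalization of day 5 only or of log2 signals, normexp correction with an offset of 50, the series matrix, floors of 1 and 8 or before normalization, 3 other filters, viral miRNAs tested too, fits of the 6 or of all 39 arrays, slide as a term or random block (statmod 1.5.0), a replicate block, the methods' analysis over the 4 groups, array weights (their estimation stopped short of its tolerance, with a warning), no fold threshold, and each array left out. Leaving out each array for the day 3 and Activin A comparisons and the alternatives with matched miRNAs and G+C were chosen after seeing the data.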

Additional observations from a re-analysis of the deposited data

Results flagged for a closer look

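The effect of Wnt3a passed the thresholds for a difference between day 3 and day 5 in 14 of the miRNAs called or named. The test was that of the difference of the 2 differences in limma without a slide term, with all arrays or without replicate 1. Over all miRNAs tested, 8 of 359 passed (2.23%), and 15 of 358 without replicate 1 (4.19%). Most of the miRNAs named were chosen by their difference at day 5, which is part of the tested quantity. Passing was thus favoured among them, and the 14 are a list only. With slide as a term 1 of the 8 calls made with all arrays was left. Of the 14, 6 were undetected on all 12 arrays of day 3, namely miR-325, miR-551b, miR-199a-5p, miR-582-5p, miR-708 and miR-322*. Arrays at the floor have no spread, which lowers p, so no p is given for them, and their sizes depend on the floor. miR-582-5p was tested only because of the Wnt3a arrays of day 5 on which it was high. The sizes for miR-141 and miR-196b depend on the floor too, since control lay there at day 5. Without spread, those control arrays lower the p of both as well. With all arrays the effect at day 5 minus that at day 3 was 2.53 for miR-141 (adjusted p = 0.00224), -1.025 for miR-16 (adjusted p = 0.0125), -1.501 for miR-325, -1.43 for miR-551b and -2.04 for miR-196b (adjusted p = 0.0166). Without Wnt3a day 5 replicate 1 it was 1.39 for miR-34b-5p (adjusted p = 0.00181), 1.21 for miR-29b (adjusted p = 0.0313), 1.00 for miR-199a-5p and 1.49 for miR-582-5p. In the same fit it was -1.90 for miR-338-5p (adjusted p = 0.02), -1.35 for miR-708, -1.40 for miR-351 (adjusted p = 0.0241), -1.01 for miR-322* and -1.01 for miR-15b (adjusted p = 0.00643).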

How the results depend on the processing

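The count of 14 calls with all arrays became 1 under normexp correction, 7 with a floor of 8, 0 in a limma fit of the control and Wnt3a arrays only (35 at an unadjusted p under 0.05), 27 in a fit of all 39 arrays, 1 with slide as a term, 24 with array weights and 31 with no fold threshold; leaving out each array gave 9 to 34. The other alternatives gave 10 to 21, among them the replicate block with 12. The count of 34 without Wnt3a replicate 1 became 0 under normexp correction (175 at an unadjusted limma p under 0.05), 18 with a floor of 8, 18 in the fit of control and Wnt3a only, 11 with the slide term, 127 with no fold threshold and 21 of the matched miRNAs with the G+C trend removed, chosen after seeing the data; omissions gave 17 to 50, both with 1 Wnt3a array left and the spread taken from the other groups, and the other alternatives 23 to 40, the replicate block 32. Same-numbered arrays of the groups did not deviate together (correlations -0.07, 0.01 and -0.09), and the random block of slide had a correlation of -0.16, so neither block tests more. The 8 calls of day 5 minus day 3 became 15 without replicate 1, 1 with the slide term and 5 under 75th percentile scaling, and 6 to 20 over omissions. The 82 calls against Activin A ranged from 64 to 83 over alternatives other than omissions, which gave 73 to 98. Among the 67 named or called miRNAs, 1105 of 1325 differences under alternatives and 720 of 802 under omissions kept sign and side of the adjusted p. The sign was reversed with an adjusted p under 0.05 for miR-27a (0.39 with array weights; omissions -1.06 without Wnt3a replicate 3 to 0.39 without replicate 1), miR-335-3p (0.34 with array weights) and miR-452 (-0.53 with array weights; omissions -0.72 without replicate 1 to 0.69 without Wnt3a replicate 2). It was also reversed, without passing, in 22 further differences under alternatives, among them miR-681, miR-351 and miR-199b*, and in 6 under omissions. Array weights, whose estimation in limma stopped with a warning before its tolerance was reached, were 0.0148 for Wnt3a replicate 1, 0.126 for replicate 2 and 1.67 for replicate 3. The cause of the other changes was not tested. Signals near the floor limit the lower calls, and the 3 arrays per group limit all.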

Other observations

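Most of the 39 viral miRNAs on the array were not detected often enough to be tested. Adding them raised the miRNAs tested from 358 to 368, and from 355 to 363 without replicate 1. Of the viral miRNAs tested with limma beside the mouse miRNAs, 0 were higher with Wnt3a at an adjusted p under 0.05 in either fit. There 76 and 168 miRNAs had an unadjusted p under 0.05. Of the 355 mouse miRNAs tested without replicate 1, 59 were higher and 68 lower at that adjusted p with no fold threshold. In that fit 3 viral miRNAs were lower: mcmv-miR-m88-1* (-0.84, adjusted p = 0.0122), mcmv-miR-M23-1-3p (-0.56, adjusted p = 0.0176) and mghv-miR-M1-2 (-0.72, adjusted p = 0.000986), the last at 5.67, 5.65 and 5.68 in control and 6.37, 4.86 and 5.03 with Wnt3a.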
